A study of Sus scrofa with 24 samples.

Results

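Integrins, laminins and cadherins were measured across the infarct core, the border zone and the normal region of pig hearts with chronic myocardial ischemia. The members were all genes whose symbol starts with ITGA, ITGB, LAMA, LAMB, LAMC, CDH or PCDH followed by a letter or digit, without the CDHR and LAMP genes. The rule found 39 genes on 69 of the 43603 probes of the array, and 37 of these genes had a probe that was well above background on at least 3 of the 24 arrays. CDH12 and CDH20 had none. ITGA7, ITGAM, LAMA2, LAMB2 and CDH2 were not found by symbol and are not among the members; a probe described as Cadherin-2 is given with the other observations. The rule also takes in ITGB1BP2, which is not an integrin: it encodes melusin, a muscle protein that binds the tail of integrin beta 1.

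The animals were domestic pigs that had received aspirin and clopidogrel and then a closed-chest, reperfused infarction. A month later they were randomized, 8 to the secretome of apoptotic peripheral mononuclear cells and 8 to medium as placebo, injected into the myocardium through a catheter, and tissue was taken a month after that. The 24 arrays analysed here come from 9 of these pigs. From the 6 secretome pigs come 6 arrays of the infarct core, 6 of the border zone and 4 of the normal region. From the 3 medium pigs come 3, 3 and 2 arrays of these regions; the labels call these pigs not treated. Both arms therefore carry the infarct and the drugs, and the normal region is remote muscle of an infarcted heart, not tissue of a healthy animal. One array was made per tissue piece, from total RNA labelled with Cy3.

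Integrins are receptors made of an alpha and a beta chain that tie cells to fibronectin, collagen, laminin or, on leukocytes, to other cells. Laminins are trimers of an alpha, a beta and a gamma chain that build the basement membrane around heart muscle cells and vessels. Cadherins join cells to each other through calcium-dependent contacts that are anchored by catenins inside the cell, and protocadherins are a related group best known from the nervous system. In the infarcted heart, muscle cells are lost, leukocytes enter and fibroblasts lay down scar, and each of these cell types carries its own set of the 3 families.

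Levels are log2 signals relative to the 75th percentile of the same array, so 0 is the signal of that percentile. They compare arrays for a probe and do not compare genes. Differences come from limma with a mean for each arm and region and the pig as a random block; the 2 arms weigh equally, and p-values were adjusted by the Benjamini-Hochberg method over all 34360 kept probes with a threshold of 0.05. A gene was read from its brightest kept probe. Between 61.5% and 75.6% of the probes were well above background on an array. The arrays were scanned in 2 series, pigs 12, 13, 16, 18 and 40 in the first and pigs 10, 11, 14 and 15 in the second, where pig 10 is the only medium pig. In the first series only secretome pig 16 and medium pig 18 have a normal region array, so its comparisons with that region rest on these arrays. Deviations from the group means correlated at 0.44 on average between different pigs of the same series and at -0.45 between series, so values within each series are given beside the pooled ones.

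Several genes were read by more than 1 probe, and the probes did not always move together. The probes printed here belong to 3 genes whose probes gave different calls between infarct core and normal region; CDH24, PCDH15 and ITGAV are further such genes and are described by their values alone. The brighter of the ITGB3 probes shares a run of 18 or more bases with 6 probes that carry other names, and no other member probe shares such a run with a probe of another gene. Only exact runs on the same strand were searched, not near matches or the opposite strand. The capitals mark the longest run shared with the CYP24A1 probe, which has 30 bases.
ITGB3, brighter probe: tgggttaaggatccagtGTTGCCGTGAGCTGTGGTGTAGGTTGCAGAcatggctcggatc
CYP24A1 probe: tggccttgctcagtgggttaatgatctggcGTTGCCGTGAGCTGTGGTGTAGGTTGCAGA
ITGB3, dimmer probe: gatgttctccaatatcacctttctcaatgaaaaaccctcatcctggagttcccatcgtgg

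For ITGA5 and CDH7 the probes share no such run, and they are shown because the brightest probe did not pass the threshold between infarct core and normal region while the others did.
ITGA5, brightest probe: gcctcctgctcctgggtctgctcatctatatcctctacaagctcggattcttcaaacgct
ITGA5, second probe: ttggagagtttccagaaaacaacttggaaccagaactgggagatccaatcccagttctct
ITGA5, dimmest probe: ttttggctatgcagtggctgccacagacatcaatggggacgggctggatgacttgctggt
CDH7, brightest probe: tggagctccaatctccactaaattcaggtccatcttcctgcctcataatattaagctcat
CDH7, second probe: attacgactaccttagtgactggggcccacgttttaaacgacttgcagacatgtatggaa

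Between the infarct core and the normal region, 14 of the 37 members were higher and 9 were lower in the infarct core, and 14 did not pass the threshold. Over all 6197 named genes with a kept probe, 27.4% were higher and 30.9% lower, so calls in either direction were common across the array. The members' median log2 difference was 0.16, beside -0.07 over all named genes. Among the 13 integrin chains 6 rose and 3 fell, among the 4 laminin chains 2 rose and none fell, among the 12 cadherins 3 rose and 3 fell, and among the 7 protocadherins 3 rose and 2 fell. These counts take the brightest probe of each gene. ITGB3, counted as lower, and PCDH15, counted as higher, each had a second probe called the other way. All 23 called members had the same sign in both scan series. The series are parts of the arrays that gave these calls, so the shared sign is not an independent check. Normexp background correction is a model-based alternative to the scanner's own subtraction. With it 9 of the 23 still passed, ITGB1, ITGB2, LAMB1, CDH11, PCDH18, ITGB6, ITGB1BP2, CDH13 and PCDH7, and the other 14 did not. It was run with an offset of 50 added to every signal, where the arrays' 75th percentiles ran from 210 to 617. The offset by itself shrinks the log2 differences of dim probes. A call lost by a dim member under this setting therefore does not single out the background method.

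**Figure D1:**
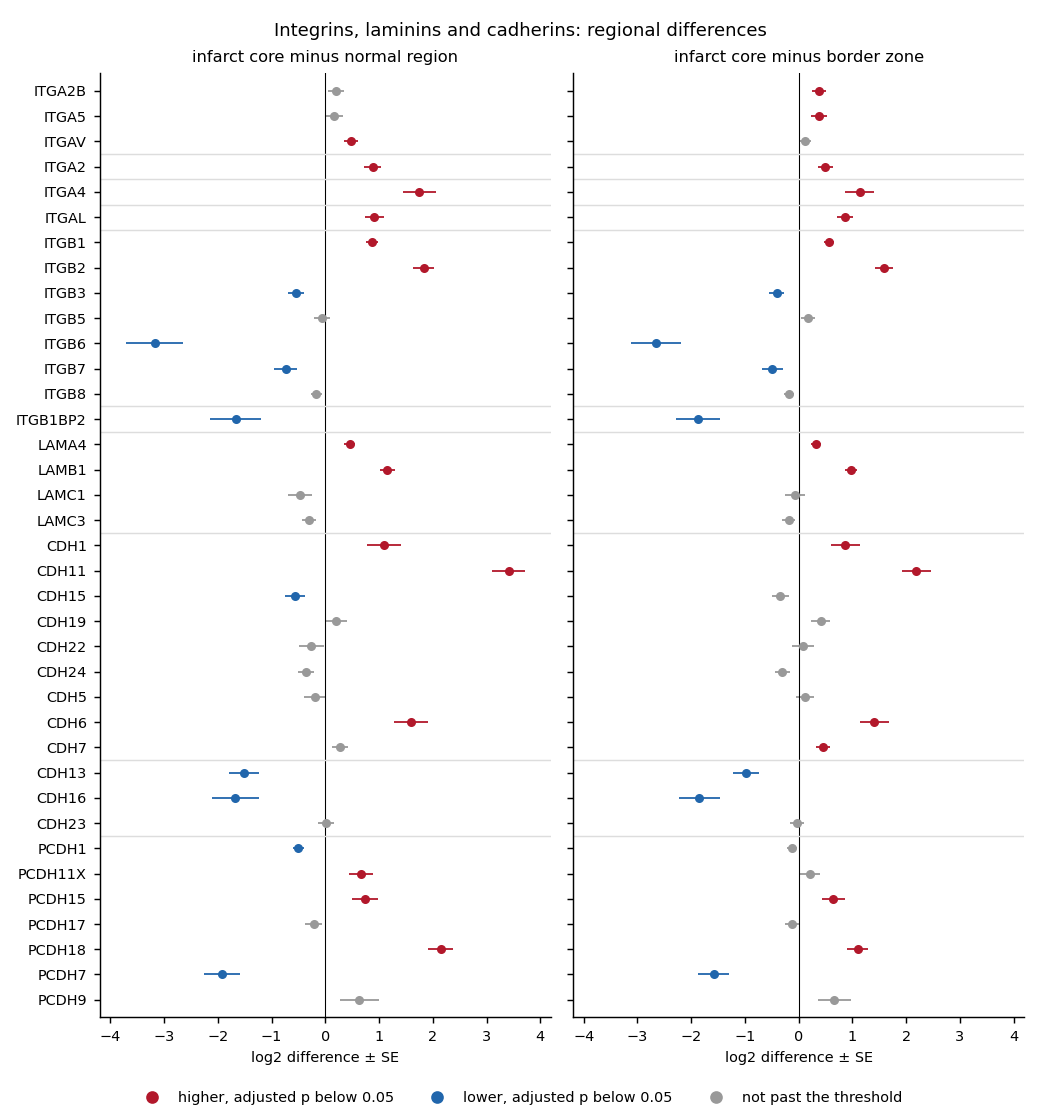
Log2 difference ± SE of each of the 37 members between infarct core and normal region (left) and between infarct core and border zone (right), grouped by role; red and blue points passed an adjusted p of 0.05 in limma. CDH11 stands highest at 3.41 and ITGB6 lowest at -3.17 in the left panel.

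The tissue pieces differed in their cells, and in bulk samples fewer cells of a type and less RNA per cell cannot be told apart. All 7 measured cardiomyocyte markers were lower in the infarct core, where their mean level ran from 2.01 to 8.09, against 7.95 to 8.63 in the normal region. All 8 measured macrophage and monocyte markers were higher there, with mean levels from 2.26 to 4.06 in the infarct core and from 0.97 to 1.93 in the normal region. All 5 measured fibroblast markers were higher, with mean levels from 5.66 to 7.23 in the infarct core and from 3.21 to 4.79 in the normal region. Of the T and NK cell markers 7 of 8 rose, and of the endothelial markers 3 of 6 fell and none rose. Of 5 smooth muscle and pericyte markers 1 rose and 2 fell, of 5 epicardial and mesothelial markers 3 rose, of 3 platelet markers 2 fell, and of 3 markers each of Schwann cells and adipocytes 1 fell. All these counts stand beside 27.4% of the named genes that rose and 30.9% that fell. The part of these marker shifts in the members' differences was not tested. Pig 40 of the medium arm stood apart: its infarct core had the lowest cardiomyocyte mean level, 2.01, and the highest T and NK cell mean level, 0.57.

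On their brightest probes, the integrin alpha chains were higher in the infarct core or did not pass the threshold. ITGA4, whose product binds fibronectin and VCAM1 and is carried mostly by leukocytes, had levels of -3.01 at the lowest, -1.79 at the median and -0.46 at the highest in the 9 infarct core arrays, against -4.29, -3.46 and -2.95 in the 6 normal region arrays. The ranges overlapped only at their ends, and all 6 pigs with both regions were higher in the infarct core. The log2 difference was 1.75 ± 0.31 (SE; limma adjusted p = 7.72e-05), with 2.42 in the first scan series and 1.32 in the second. It was 0.63 with normexp background correction and did not pass (limma adjusted p = 0.0942). ITGAL, the alpha chain of the leukocyte integrin that binds ICAM1, differed by 0.91 ± 0.18 (limma adjusted p = 0.000224), and its second probe gave 1.27.

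ITGAV, the alpha chain that pairs with several beta chains to bind ligands with an RGD sequence, had levels from 2.53 to 3.24 with a median of 2.80 in the infarct core, against 1.94 to 2.61 with a median of 2.38 in the normal region. Its log2 difference was 0.48 ± 0.13 (limma adjusted p = 0.00388), and 4 of its 5 probes passed the threshold. Without pig 10 the difference was 0.29 and did not pass (limma adjusted p = 0.143). Within the first and second scan series it was 0.31, which did not pass, and 0.70. ITGA2, a collagen receptor chain, rose by 0.88 ± 0.15 on its brightest probe (limma adjusted p = 7.28e-05). Its second probe was not well above background on any normal region array and was at least 1.67-fold higher in the infarct core, where 7 of 9 arrays detected it (limma adjusted p = 4.86e-06). That bound takes, on each normal region array, the lowest signal among probes well above background.

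ITGA5, the alpha chain of the classical fibronectin receptor, depended on the probe. Its brightest probe ran from 2.21 to 3.96 with a median of 2.64 in the infarct core and from 2.32 to 3.32 with a median of 2.52 in the normal region. That probe differed by 0.16 ± 0.16 (limma adjusted p = 0.432). The second and the dimmest probe were lower in the infarct core by log2 differences of -1.21 and -1.07 (limma adjusted p = 0.000898 and 0.00761). No direction can be given for this gene. ITGA2B, the platelet alpha chain, differed by 0.20 ± 0.15 (limma adjusted p = 0.284).

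Beta chains went both ways. ITGB2, the shared beta chain of the leukocyte integrins, had levels of 0.46, 1.77 and 2.94 (lowest, median and highest) in the infarct core, against -0.29, 0.11 and 0.37 in the normal region. The ranges did not overlap, and all 6 pigs were higher in the infarct core. The log2 difference was 1.83 ± 0.20 (limma adjusted p = 4.75e-07), with 2.27 and 1.37 in the first and second scan series.

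ITGB1, the beta chain that most matrix-binding integrins share, ran from 5.53 to 6.10 with a median of 5.90 in the infarct core and from 4.86 to 5.11 with a median of 4.96 in the normal region, again without overlap. It rose by 0.87 ± 0.11 (limma adjusted p = 2.62e-06), with 0.85 and 0.94 in the 2 scan series. All 6 ITGB1 probes passed the threshold, with log2 differences from 0.79 to 1.00; 2 pairs of them overlap in sequence and are not independent readings.

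ITGB6, which pairs with ITGAV and is best known from epithelium as an activator of latent TGF-beta, fell most among the members. Its levels were -8.47, -4.34 and -1.09 in the infarct core, against -1.71, -0.69 and -0.05 in the normal region. The difference was -3.17 ± 0.53 (limma adjusted p = 4.66e-05), with -4.02 and -2.44 in the 2 scan series, and all 6 pigs were lower. It still passed with normexp background correction, at -1.44. The lowest infarct core array was that of pig 40, and 8 of the 9 infarct core arrays were well above background. ITGB7, the partner of ITGA4 and ITGAE on lymphocytes, fell by 0.74 on the log2 scale (SE 0.22; limma adjusted p = 0.00796). ITGB5 and ITGB8, both partners of ITGAV, differed by -0.06 and -0.17 and did not pass (limma adjusted p = 0.775 and 0.189).

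ITGB3, the beta chain of the platelet fibrinogen receptor and a partner of ITGAV, had opposite calls on its 2 probes. The brighter probe, with the shared run shown above, had levels of 9.73, 9.99 and 10.88 in the infarct core and 10.40, 10.86 and 11.02 in the normal region, a difference of -0.55 ± 0.15 (limma adjusted p = 0.00496). Neither scan series alone passed. The 6 probes that share a run with it differed by between -0.52 and 0.20: the CYP24A1 probe gave -0.52 and an RPL32 probe -0.33 (limma adjusted p = 0.00717 and 0.0198), and the other 4 did not pass. The dimmer ITGB3 probe rose by 1.29 ± 0.20 (limma adjusted p = 1.81e-05), and no direction can be given for the gene. ITGB1BP2, which is expressed in heart and skeletal muscle, had levels of -3.61, 1.13 and 2.49 in the infarct core, against 1.76, 2.72 and 2.87 in the normal region. It fell by 1.66 on the log2 scale (SE 0.47, limma adjusted p = 0.00568). It was lower in 5 of 6 pigs, with -2.62 in the first scan series and -0.86, which did not pass, in the second. The call held at -1.06 with normexp background correction.

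**Figure D2:**
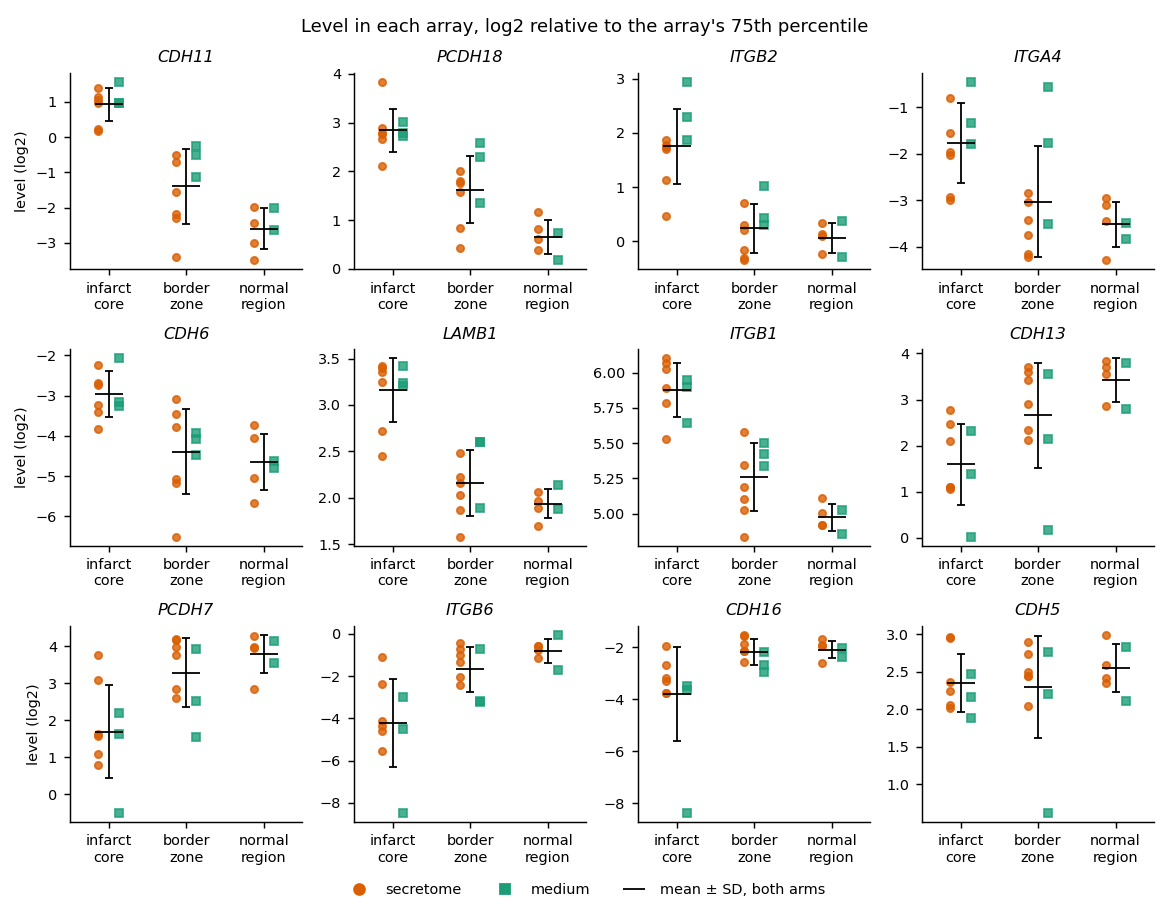
Level of 12 members in each array, log2 relative to the array's 75th percentile, by region; circles are secretome pigs, squares medium pigs, and bars the mean ± SD over both arms. CDH11, PCDH18, ITGB2, LAMB1, ITGB1 and CDH13 have no overlap between infarct core (n = 9) and normal region (n = 6), and the lowest ITGB6 and CDH16 points in the infarct core belong to 1 medium pig.

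Of the laminin chains, LAMB1 and LAMA4 rose. LAMB1, a beta chain of many laminins, had levels of 2.46, 3.25 and 3.42 in the infarct core and 1.70, 1.93 and 2.14 in the normal region, without overlap. It rose by 1.16 ± 0.13 (limma adjusted p = 8.94e-07), with 1.21 and 1.17 in the 2 scan series, and its second probe gave 1.06. LAMA4, the alpha chain of laminins around vessels and muscle fibres, had a median of 3.21 and a highest level of 3.36 in the infarct core, against a median of 2.83 and a highest level of 3.09 in the normal region, and the ranges overlapped. Its difference was 0.45 ± 0.10 (limma adjusted p = 0.000896), with 0.62 in the first scan series and 0.35, which did not pass, in the second.

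LAMC1, the gamma chain of most laminins, had levels of -0.93, -0.76 and 0.67 in the infarct core, against -0.51, 0.66 and 0.91 in the normal region. The difference of -0.47 ± 0.22 did not pass (limma adjusted p = 0.0711), although all 6 pigs were lower. Outside the naming rule, the probes described as laminin subunit gamma-1 differed by -0.17 and -0.07 and did not pass (limma adjusted p = 0.323 and 0.73). LAMC3 differed by -0.31 ± 0.13 (limma adjusted p = 0.0528).

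Among the classical cadherins, CDH11 had the highest difference of all members. CDH11, a cadherin of mesenchymal cells and fibroblasts, had levels of 0.16, 0.97 and 1.56 in the infarct core, against -3.50, -2.52 and -1.98 in the normal region. The lowest infarct core array lay above the highest normal region array. The log2 difference was 3.41 ± 0.31 (limma adjusted p = 1.23e-07), with 4.05 and 3.06 in the 2 scan series, and all 6 pigs were higher. The call held at 2.25 with normexp background correction.

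CDH6, a cadherin known from kidney and from developing tissues, had levels of -3.82, -3.16 and -2.07 in the infarct core and -5.67, -4.70 and -3.74 in the normal region. It rose by 1.60 ± 0.31 (limma adjusted p = 0.00021), with 1.69 in the first scan series and 1.40, which did not pass, in the second (limma adjusted p = 0.103). With normexp background correction the difference was 0.13 and did not pass (limma adjusted p = 0.758). CDH6 was well above background on 9 of 9 infarct core and 3 of 6 normal region arrays. CDH1, the epithelial cadherin, had levels of -4.70, -3.40 and -0.65 in the infarct core and -4.75, -4.34 and -2.78 in the normal region. Its difference of 1.10 ± 0.31 passed (limma adjusted p = 0.00581), but only 3 of 6 pigs were higher, and without pig 18 it was 0.77 and did not pass (limma adjusted p = 0.116). It was 0.45 in the second scan series alone and 0.08 with normexp background correction, neither of which passed (limma adjusted p = 0.392 and 0.856).

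CDH5, the cadherin of endothelial junctions, did not pass the threshold. Its levels were 1.88, 2.25 and 2.96 in the infarct core and 2.11, 2.51 and 2.99 in the normal region, a difference of -0.19 ± 0.20 (limma adjusted p = 0.448), with all 6 pigs lower. The CDH7 probes differed: the brightest gave 0.27 ± 0.15 (limma adjusted p = 0.139) and the second gave 2.97 ± 0.42 (limma adjusted p = 8.22e-06). The CDH24 probes did so too, with -0.36 on the brightest, which did not pass, and 0.51 and 0.96 on the others, which did. The remaining classical cadherins lay between -0.57 and 0.20; the lowest, which passed, was the probe named CDH15, which the array file describes as P-cadherin, so its identity is uncertain.

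Both called atypical cadherins fell. CDH13, a cadherin without a cell-internal domain that is held in the membrane by a lipid anchor and binds adiponectin, had levels of 0.02, 1.38 and 2.78 in the infarct core and 2.78, 3.63 and 3.83 in the normal region. It fell by 1.51 on the log2 scale (SE 0.28; limma adjusted p = 0.000116) with ranges that met without overlapping, in all 6 pigs and with -1.79 and -1.36 in the 2 scan series. Its second probe overlaps the first and also gave -1.51. CDH16, known as the kidney cadherin, had levels of -8.38, -3.48 and -1.94 in the infarct core, and between -2.61 and -1.70 in the normal region. Its difference was -1.67 ± 0.44 (limma adjusted p = 0.00295), with -2.13, which did not pass, in the first scan series (limma adjusted p = 0.0927) and -1.09 in the second. It was -0.63 with normexp background correction and did not pass (limma adjusted p = 0.0977). CDH23 differed by 0.01 ± 0.14 (limma adjusted p = 0.953).

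Protocadherins also went both ways. PCDH18 had levels of 2.12, 2.78 and 3.83 in the infarct core and 0.17, 0.68 and 1.17 in the normal region, without overlap. It rose by 2.15 ± 0.23 (limma adjusted p = 4.55e-07), with 2.33 and 2.16 in the 2 scan series. PCDH7 had levels of -0.50, 1.63 and 3.76 in the infarct core and 2.85, 3.97 and 4.27 in the normal region. It fell by 1.92 on the log2 scale (SE 0.33; limma adjusted p = 6.77e-05), with -2.24 and -1.60 in the 2 scan series, and its second probe gave -1.38.

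On their brightest probes, the other protocadherins differed by less than 1 on the log2 scale. PCDH1 fell by 0.50 (SE 0.10, limma adjusted p = 0.000413), with no overlap between the regions. PCDH11X rose by 0.66 on its brightest probe, but without pig 10 that difference was 0.23 and did not pass (limma adjusted p = 0.45). Its second probe gave 1.49 (limma adjusted p = 0.000257). PCDH15 was close to background in the normal region, where 2 of 6 arrays were well above it, and rose by 0.74, or by 0.61 and not past the threshold without pig 15 (limma adjusted p = 0.0949), while its second kept probe was well above background on 1 array of each region and differed by -1.31 (limma adjusted p = 0.0187).

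**Figure D3:**
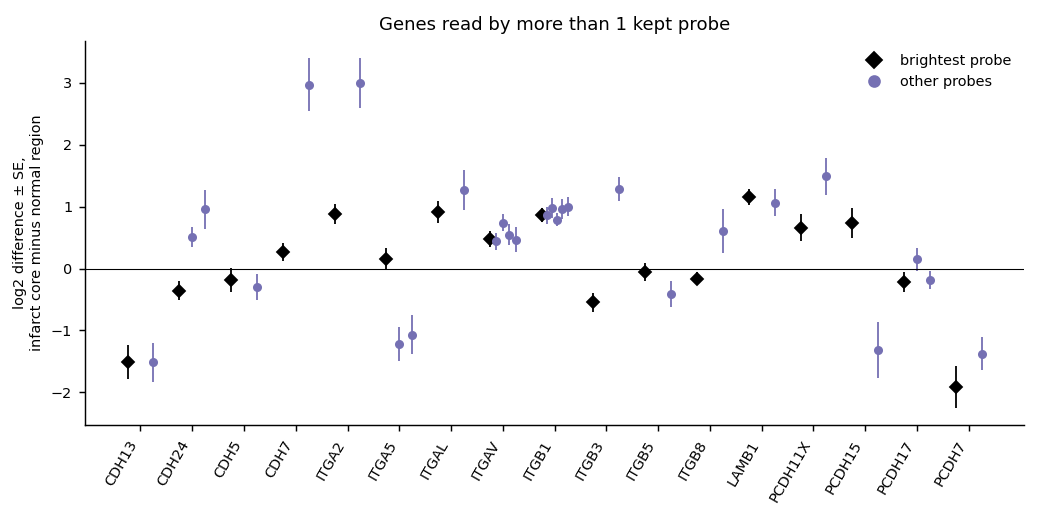
Log2 difference ± SE between infarct core and normal region for each kept probe of the 17 genes with more than 1; diamonds are the brightest probes. The 6 ITGB1 probes lie together, whereas the ITGB3, ITGA5 and CDH7 probes lie apart.

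Of the 17 genes with at least 2 kept probes, 11 had the same call on every probe between infarct core and normal region. In 2 genes, ITGB3 and PCDH15, probes were called in opposite directions, and in 4, ITGAV, ITGA5, CDH7 and CDH24, some probes passed and others did not.

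Between the border zone and the normal region 1 of the 37 members passed, in the higher direction. Over all named genes 0.597% were higher and 0.0161% lower. The member was PCDH18, with levels of 0.43, 1.75 and 2.58 in the border zone, against 0.17, 0.68 and 1.17 in the normal region. Its difference was 1.05 ± 0.23 (limma adjusted p = 0.0406), with all 6 pigs higher and 1.43 and 0.69 in the 2 scan series. The call was lost when any one of 6 of the 9 pigs was left out, with differences from 0.95 to 1.15, and with the pig as a fixed block, where the difference was 1.01. CDH11 had levels of -3.41, -1.13 and -0.25 in the border zone, against -3.50, -2.52 and -1.98 in the normal region, and its difference of 1.22 ± 0.31 did not pass (limma adjusted p = 0.0752). At an unadjusted p under 0.05, 7 of the 37 members passed, beside 1075 of the 6197 named genes, so the members' count is near that of the whole array.

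Between the infarct core and the border zone, 15 members were higher and 7 lower in the infarct core. The shares over all named genes were 25.7% higher and 26.4% lower. This comparison shares the infarct core arrays with the one against the normal region, and all 9 pigs have both pieces. CDH11 had levels of 0.16, 0.97 and 1.56 in the infarct core and -3.41, -1.13 and -0.25 in the border zone, without overlap, and differed by 2.19 ± 0.27 (limma adjusted p = 7.62e-06). ITGB2 differed by 1.59 ± 0.17 (limma adjusted p = 2.35e-06), LAMB1 by 0.98 ± 0.11 (limma adjusted p = 4.95e-06) and ITGB1 by 0.56 ± 0.10 (limma adjusted p = 8.42e-05). Each of these 4 genes was higher in the infarct core in 9 of 9 pigs. With normexp background correction 4 members were higher, CDH11, ITGB2, LAMB1 and PCDH18, and 3 were lower, CDH13, PCDH7 and ITGB1BP2; ITGB1 was 0.31 and did not pass (limma adjusted p = 0.4).

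CDH6 differed by 1.41 ± 0.27, ITGA4 by 1.14 ± 0.27 and PCDH18 by 1.10 ± 0.20 between infarct core and border zone, also in 9 of 9 pigs (limma adjusted p = 0.000241, 0.00152 and 0.000139). ITGB6 differed by -2.65 ± 0.46, PCDH7 by -1.58 ± 0.29 and CDH13 by -0.98 ± 0.24, lower in 9 of 9 pigs (limma adjusted p = 0.00011, 0.000167 and 0.00218). CDH6 was 0.56, ITGA4 0.58 and ITGB6 -0.72 with normexp background correction, and none of these 3 passed (limma adjusted p = 0.109, 0.0802 and 0.0829). ITGB6 also missed the threshold in the second scan series alone, with -2.05, and CDH13 in the first alone, with -0.91, and without the block, with -0.98 (limma adjusted p = 0.0557, 0.0674 and 0.0994). The dimmer ITGB3 probe was again opposite to the brighter one, with 1.33 against -0.41.

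**Figure D4:**
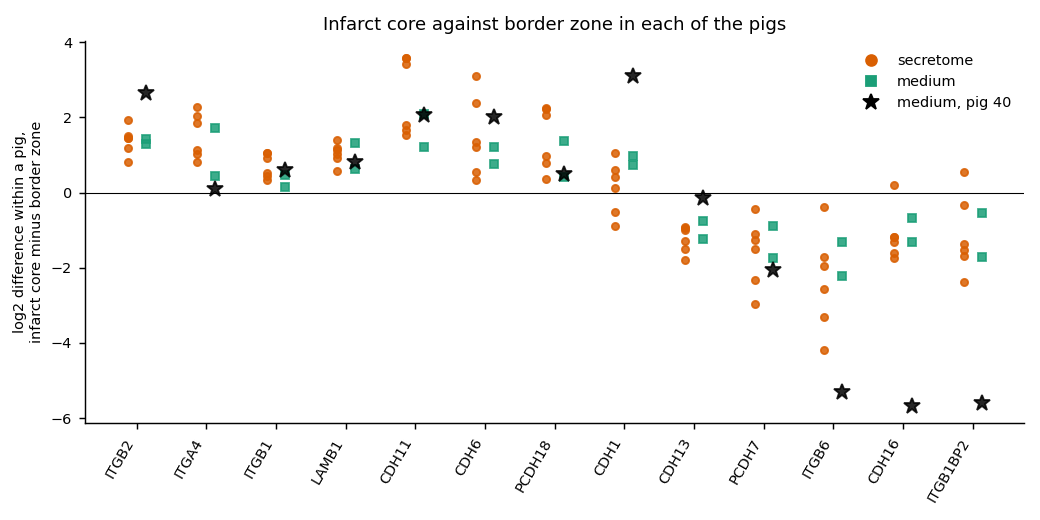
Log2 difference between infarct core and border zone within each of the 9 pigs, for 13 members; circles are secretome pigs, squares medium pigs and the star is pig 40 of the medium arm. The star is the lowest point for ITGB6, CDH16 and ITGB1BP2 and the highest for CDH1.

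Pig 40 decided some of these values. CDH16 differed by -1.85 with it and by -1.07 without it, and ITGB1BP2 by -1.87 with it and by -1.13 without it; both still passed. With normexp background correction CDH16 was -0.31 and did not pass, and ITGB1BP2 was -1.20 and passed. CDH1 differed by 0.87 with pig 40 and by 0.49 without it, ITGA2B by 0.38 and 0.20, the brighter ITGB3 probe by -0.41 and -0.22, PCDH15 by 0.65 and 0.40, and CDH7 by 0.45 and 0.31, and these 5 did not pass without it. ITGA5 was higher by 0.38 over all pigs (limma adjusted p = 0.0353) and by 0.17 with pig 40 left out, and its call was also lost without pig 12, 13, 14 or 16, with no filter, with no block, with slide as block, with normexp background correction and in either scan series alone. ITGB7 differed by -0.49 (limma adjusted p = 0.0416) and did not pass when any one of 7 of the 9 pigs was left out. In all, 15 of the 22 called members still passed without pig 40. ITGA2B had opposite signs in the 2 scan series, 0.66 in the first and -0.04 in the second.

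Between secretome and medium no member passed in any region. In the infarct core 0.0323% of the named genes passed, and in the border zone, the normal region and both tests of an arm difference in the regional effects the share was 0. At an unadjusted p under 0.05 in limma, 8 of the 37 members passed in the infarct core, 3 passed for the border zone and 0 for the normal region, beside 339, 548 and 88 of the 6197 named genes. With 3 medium pigs, a difference that missed the threshold is not shown to be absent.

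The smallest p among the members in the infarct core belonged to CDH1. Its levels were -4.70 at the lowest, -3.64 at the median and -3.29 at the highest in the 6 secretome pigs, against -3.08, -1.96 and -0.65 in the 3 medium pigs, so the arms did not overlap. The log2 difference was -1.99 ± 0.57 (limma adjusted p = 0.881), with -2.26 and -1.13 in the 2 scan series and -1.37 without pig 40. In the second scan series every arm difference rests on 1 medium pig. CDH19, a cadherin of Schwann cells and melanocytes, came next, with levels of -3.58, -2.63 and -2.13 in the secretome pigs, against -3.87, -3.63 and -3.50 in the medium pigs. It differed by 0.99 ± 0.37 (limma adjusted p = 0.974), with 1.28 and 0.79 in the 2 scan series.

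In the border zone the smallest p belonged to ITGA4 and ITGB5. ITGA4 had levels of -4.22, -3.58 and -2.85 in the secretome pigs, against -3.51, -1.76 and -0.57 in the medium pigs, a difference of -1.62 ± 0.56 (limma adjusted p = 0.662). It was -2.20 in the first scan series, -0.26 in the second and -0.94 without pig 40. The mean level of the T and NK cell markers was -0.82 and -0.87 in the border zones of medium pigs 40 and 18, the pigs with the highest ITGA4, and their part in this difference was not tested. ITGB5 gave 0.65 ± 0.27 (limma adjusted p = 0.675), and 0.23 when pig 40 was left out. In the normal region CDH24 and CDH23 had the smallest p, with differences of -0.49 and -0.48 (limma adjusted p = 1 for both after rounding).

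The regional effects did not differ between the arms at the threshold. CDH1 had the smallest p in both tests, with an arm difference of -1.46 ± 0.54 in the infarct core against border zone effect and of -1.85 ± 0.63 in the infarct core against normal region effect (limma adjusted p = 0.841 and 1 after rounding). At an unadjusted p under 0.05, 4 members passed in the first test and 2 in the second, beside 371 and 214 of the 6197 named genes. The next were ITGB5 with -0.56 in the first and ITGB2 with -0.88 in the second.

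**Figure D5:**
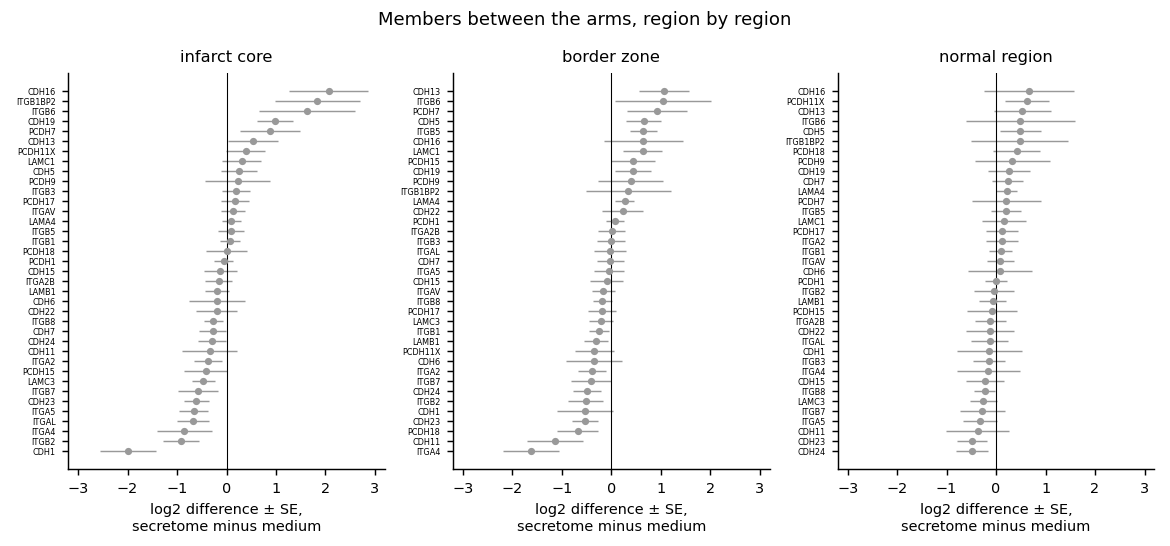
Log2 difference ± SE between secretome and medium pigs for the 37 members in the infarct core (6 against 3 arrays), the border zone (6 against 3) and the normal region (4 against 2). No point passed the threshold; CDH1 is lowest in the infarct core at -1.99 and ITGA4 lowest in the border zone at -1.62.

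The partners of these receptors were read from lists chosen with earlier results of these data known. Of 18 measured integrin ligands other than laminins, 13 rose and 3 fell between infarct core and normal region, beside 27.4% and 30.9% of all named genes. The ligands' median log2 difference was 1.16, beside -0.07 over all named genes. Tenascin C (TNC), osteopontin (SPP1), fibronectin (FN1) and periostin (POSTN) differed by 5.91, 4.82, 4.61 and 4.54, whereas vitronectin (VTN) differed by -2.25. VCAM1, a ligand of ITGA4, and ICAM1, a ligand of ITGAL and ITGB2, rose by 0.95 and 0.92. On the same list MADCAM1 differed by -1.57 (limma adjusted p = 1.2e-05). ICAM2 differed by -0.21 and did not pass (limma adjusted p = 0.391). In the border zone 3 of the 18 ligands were higher than in the normal region, TNC, POSTN and FN1, beside 0.597% of the named genes. With the authors' values no probe was called higher in the border zone. These 3 calls were lost with the pig as a fixed block, with no block, with the scan series as covariate, in the second scan series alone and without pig 16 or 40, where no probe of the array was called higher.

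Of 13 measured integrin adaptors and kinases 5 rose and none fell, with a median of 0.32, beside 27.4% and 30.9% of all named genes. ACTN1 and FLNA, which link integrins to actin, rose by 2.41 and 2.04. TLN1, VCL and FERMT2 of the same list differed by 0.50, 0.01 and -0.07 and did not pass (limma adjusted p = 0.168, 0.954 and 0.583). Of 11 measured partners of cadherins 5 fell and none rose, with a median of -0.42, beside 30.9% of all named genes that fell and 27.4% that rose. These included desmoplakin (DSP) at -1.62, connexin 43 (GJA1) at -1.28 and p120 catenin (CTNND1) at -0.63. Of 11 measured basement membrane components and laminin receptors outside the integrins, 2 rose and 5 fell, read against the same shares. Dystrophin (DMD) and SGCA, parts of the complex that links laminin to the muscle cell, differed by -1.72 and -2.11. SPARC and SGCE rose by 2.46 and 1.47.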

How the data were processed

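RNA of 24 pig heart samples was measured on 1-colour Agilent arrays. The processed signal intensity was deposited per array by the authors from Agilent Feature Extraction 10.7.3.1, background-subtracted per the file headers; the authors also deposited log2 values normalized between arrays, and limma 3.14.4 is named in the submitters' processing notes, with the method not given in the sources used here. Here log2 of the processed signal minus the array's 75th percentile was taken, and probes well above background on at least 3 arrays were kept (34360 of 43603). limma 3.58.1 in R 4.3.3 fitted 6 group means with the pig as a random block (correlation 0.548); the fit was tested on simulated data. Arrays were assigned to a pig by the pig number in the labels, which is the basis for the pairing. The 21 pairs of arrays of the same pig had deviations that all correlated positively (0.12 to 0.78). Arrays of a pig also share a scan series, where different pigs correlated at 0.44 on average, so this does not test the pairing. With the scan series as covariate the block correlation was 0.204.

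Probes took their gene symbol from a RefSeq table through their accession or gene ID, or else from the file: 14218 had 1 symbol, 39 several and 29346 none. Members named in the text were those called between infarct core and normal region with a log2 difference of at least 1, those called between border zone and normal region, the 2 with the smallest p between arms, and a fixed list; further probes and members were added where probes disagree or 1 pig decided a value. Members and lists were chosen with earlier results of these data known. Probe sequences are those of the array files, which give no genome position that could be used here. Alternatives covered the background, the scaling, the filter, the authors' values, the blocks, the scan series and each pig left out. The number of arrays limits the precision.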

Additional observations from a re-analysis of the deposited data

Results flagged for a closer look

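In the normal region of the 4 secretome pigs, ITGB1BP2 had a level of 1.76 in pig 11, against 2.76 to 2.87 in the other 3, a gap larger than Dixon's 95% value for 4 samples. Chance flags about 1 in 20 groups; 57 groups over 19 genes were examined and 1 was marked.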

How the results depend on the processing

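The counts of called members held within 1.5 times under most alternatives. With normexp background correction, 5 were higher and 4 lower between infarct core and normal region, 0 higher between border zone and normal region, and 4 higher and 3 lower between infarct core and border zone, against 14, 9, 1, 15 and 7; over all kept probes it called 2874 higher and 4018 lower in the first comparison, against 8714 and 9489. In the second scan series alone these counts were 8, 5, 0, 7 and 3. Without the replicate block, infarct core against border zone gave 9 higher and 4 lower and border zone against normal region 0; with the pig as a fixed replicate block the latter was also 0. The authors' values, where 30 members had a probe, gave 4 lower between infarct core and border zone and 0 higher in the border zone, where PCDH18 had no value. The call in the border zone was also 0 with quantile scaling, no filter, the scan series as covariate, slide as random block and in the first scan series alone, and 0 to 1 with a pig left out. The brighter ITGB3 probe turned to 0.10 and 0.035 with quantile scaling (infarct core against normal region and against border zone), to 0.37 and 0.46 as the mean of both probes, to 1.29 and 1.33 on its other probe, an alternative chosen after seeing the data, and to 0.98 and 1.03 in the authors' values, which hold the other probe alone. ITGA5 against the border zone turned to -0.21 as the mean of its probes. Of 721 recomputed differences of named members, 646 kept direction and side of the threshold, 66 lost the call and 9 turned. Between the arms no member was called under any alternative that could be fitted for that comparison. The causes were not tested. Members near background rest on dim probes: CDH6, PCDH15, CDH22 and PCDH9 were well above it on 19, 18, 17 and 15 of the 24 arrays. CDH16 and ITGB6 were well above background on 23 arrays, with their lowest levels in the infarct core. CDH1, ITGA2, PCDH11X and CDH15 were also dim, with mean levels from -4.28 to -3.41.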

Other observations

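A further 25 kept probes outside the naming rule are described in the array files as an integrin, a laminin or a cadherin without such a symbol, and were looked at after the members' values were seen. Of these 14 were higher and 3 lower in the infarct core than in the normal region, beside 8714 and 9489 of all 34360 kept probes. Probes described as protocadherin beta 15, protocadherin beta-4-like and protocadherin beta 14, members of the clustered protocadherins, differed by 1.96, 1.37 and 1.36 on the log2 scale (limma adjusted p = 3.08e-06, 0.000456 and 6.62e-05). The protocadherin beta 15 probe was also higher in the border zone than in the normal region, by 1.24 (limma adjusted p = 0.0323), with 11 of 24 arrays well above background. This call was lost with the pig as a fixed block, with no block, with the scan series as covariate and without pig 16 or 40. In these settings, and with the authors' values, no probe was called higher in the border zone. A probe described as cadherin-18-like differed by -2.05 (limma adjusted p = 9.31e-06), and one described as Cadherin-2, the cadherin of heart muscle junctions, by 1.00 with 10 of 24 arrays well above background (limma adjusted p = 0.0242). The integrin alpha-1-like and integrin alpha-6-like probes differed by 0.39 and 0.37 (limma adjusted p = 0.0105 and 0.0305). The probe described as Laminin B1 protein gave 0.22 and did not pass (limma adjusted p = 0.352), beside the higher LAMB1. The probe described as Cadherin-7 differed by 1.13, with 5 of 24 arrays well above background (limma adjusted p = 0.0113). Probes described as integrin alpha-E gave -0.98 and 0.61, of which the first passed (limma adjusted p = 0.0023 and 0.24), and those described as laminin subunit alpha-5 gave -0.76, which passed, and -0.59, which did not (limma adjusted p = 0.00869 and 0.198).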
